A study of Homo sapiens with 12 samples.

Results

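Integrins and the proteins of focal adhesions were followed as 39 genes in 12Z, a human cell line that was immortalized from epithelial cells of an endometriotic lesion. The members are 19 integrin chains, 4 proteins that bind integrin tails and 7 adaptors that lead to actin. The others are 5 adhesion kinases and scaffolds and 4 other receptors or membrane partners. All were chosen by name, with earlier results of these data known, and matched by gene identifier. They are 39 of the 60617 annotated genes in the count tables. mRNA-seq was done on cells carrying the pCAG Viperin plasmid with insulin (Viperin + Insulin), the same plasmid with vehicle (Viperin), pCAG empty vector with insulin (Insulin) and pCAG empty vector with vehicle (Control), with 3 libraries per group. Insulin was given at 100 nM after 4 h without serum, and RNA was taken 24 h later. All groups were transiently transfected with plasmid DNA, so that even Control cells are transfected cells, and the cells are 1 line. The sample labels name pCAG as the empty vector while a protocol note names pBabe, and the label was used here. Viperin is the product of RSAD2, an interferon-stimulated gene.

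Integrins are pairs of an alpha and a beta chain that span the plasma membrane and hold matrix proteins such as collagen, laminin and fibronectin outside the cell. Inside, talin and kindlin bind the beta tail and switch the receptor on, and adaptors such as vinculin, ILK and the tensins tie it to actin, while the kinases FAK and Src signal from the same site. In endometriosis such adhesion is thought to let endometrial cells take hold on peritoneal surfaces.

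The libraries held 25979022 to 46889002 read pairs assigned to genes on the reverse strand. RSAD2 was at 462.5 to 609 CPM (counts scaled to a library size set by TMM) in Viperin + Insulin and 384 to 665 CPM in Viperin libraries, against 3.01 to 5.19 CPM in Insulin and 2.28 to 3.48 CPM in Control libraries. Control library 1 and Viperin library 3 stood apart, with 13.9% and 12.1% of reads mapping to more than 1 place, where the other libraries had 9.44% to 10.99%. CPM of cell type markers, here and below, were scaled to all assigned counts of a library, with no TMM. Of 8 epithelial markers, the keratins KRT8, KRT18 and KRT19 averaged 1289.7, 824 and 464 CPM, but the defining markers EPCAM and CDH1 held only 2 to 39 and 24 to 66 counts. Of 10 stromal or mesenchymal markers, VIM and COL3A1 were highest, at 1529.5 and 1578 CPM. PDGFRA, PDGFRB and DCN were lowest, at 19.7, 60.2 and 75.6 CPM. In such bulk libraries, fewer cells of a type and less RNA per cell cannot be told apart. The cells are therefore called here by their line name. Of 7 leukocyte markers, CD14 held 127 to 258 counts per library, PTPRC 16 to 52 and the other 5 at most 7, with CD3E at 0 to 1.

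Per kilobase of annotated exon, CAV1 and CD44 stood highest. The length is the union over all annotated transcripts of a gene, so the order and the chain shares depend on it. By CPM alone CD44 averaged 1388.5, ITGB1 728 and CAV1 666, over 9.99, 14.6 and 3.87 kb of annotated exon. CAV1, the coat protein of caveolae, averaged 172 CPM per kb over the 12 libraries (155.8 to 192), and CD44, the hyaluronan receptor, averaged 139 CPM per kb (118 to 158). ILK, a scaffold at the integrin tail, averaged 71.1 CPM per kb. ITGB1, the beta chain that most alpha chains pair with, lay between 46.5 and 53.8 CPM per kb, and CD151, a tetraspanin that sits beside laminin-binding integrins, averaged 44.1 CPM per kb. The ranges of CAV1 and CD44 over the libraries met only at their ends, and that of CD151 (38.6 to 47.8) overlapped that of ITGB1.

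Among the 7 beta chains, ITGB1 made up 65.6% to 70.0% of the summed CPM per kb. ITGB5 followed with a median of 13.9%, and ITGB3, ITGB4 and ITGB8 had medians of 6.50%, 6.15% and 5.69%. Among the 12 alpha chains, ITGA3 and ITGA6, which bind laminin, and ITGA5, the fibronectin receptor chain, held medians of 26.7%, 25.9% and 24.3%. ITGAV, which pairs with several beta chains to bind the RGD motif, held 6.87%. It averaged 135 CPM over 19.3 kb of annotated exon, beside 185 CPM over 7.38 kb for ITGA5. At the other end, ITGA4 and ITGA10 averaged 0.282 and 0.148 CPM per kb. ITGB6 held 0 to 8 counts and ITGB7 0 to 4 counts per library, too few to show a difference at this depth. ITGA9, with 0 to 3 counts, fell under the mean of 1 count per library needed for testing, which left 38 of 39 members.

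**Figure D1:**
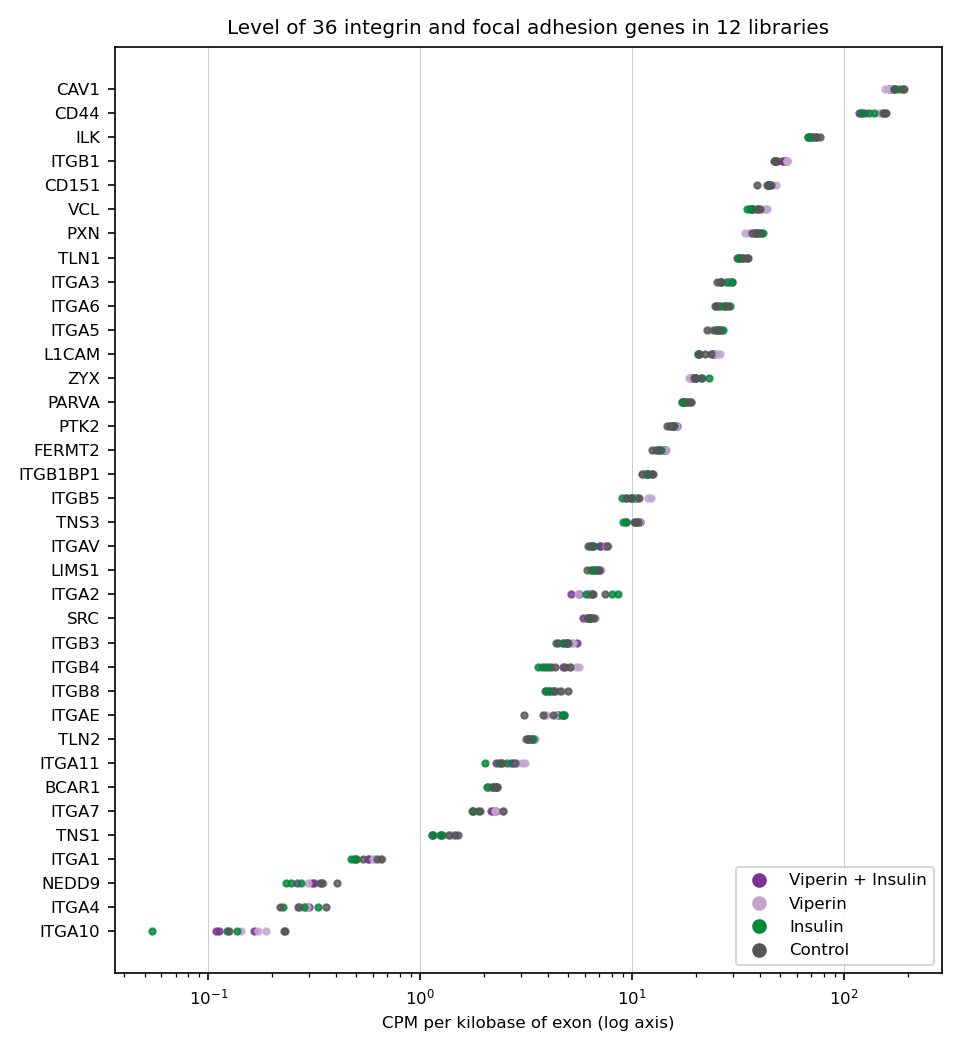
Level of 36 members in CPM per kilobase of exon on a log axis, 1 point per library, coloured by group (Viperin + Insulin, Viperin, Insulin, Control), ordered by mean level from CAV1 at 172 to ITGA10 at 0.148. Points of the 4 groups lie close together beside the span between genes; ITGB6, ITGB7 and ITGA9 are left out for their few counts.

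Promoter windows from RefSeq (GRCh38.p14), 250 bases before to 50 after the start of the gene, were matched to 30 of the 39 members. Those of L1CAM and CAV1, which moved in opposite directions with the Viperin plasmid, and of CD44 and VCL, which fell together with insulin, are shown to let their proximal sequence be compared. The windows lie at chrX:153875895-153876194 on the minus strand, chr7:116524759-116525058 on the plus strand, chr11:35138921-35139220 on the plus strand and chr10:73997866-73998165 on the plus strand, in that order, and each is written 5′ to 3′ on the strand of its gene. Capitals mark every match, on either strand, to GGGCGG (bound by SP and KLF factors, CCGCCC on the other strand) and GGAATG (bound by TEAD factors).
L1CAM: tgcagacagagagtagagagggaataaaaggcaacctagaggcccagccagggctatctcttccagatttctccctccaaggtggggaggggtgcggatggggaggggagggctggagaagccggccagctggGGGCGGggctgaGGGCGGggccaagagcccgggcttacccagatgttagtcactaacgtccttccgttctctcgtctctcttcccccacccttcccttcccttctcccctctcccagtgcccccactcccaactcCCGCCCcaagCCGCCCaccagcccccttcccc
CAV1: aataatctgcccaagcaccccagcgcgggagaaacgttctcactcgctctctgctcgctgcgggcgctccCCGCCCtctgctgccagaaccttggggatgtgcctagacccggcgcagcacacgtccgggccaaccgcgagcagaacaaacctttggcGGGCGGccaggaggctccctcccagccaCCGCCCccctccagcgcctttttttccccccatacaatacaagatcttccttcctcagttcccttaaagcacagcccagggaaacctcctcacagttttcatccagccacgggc
CD44: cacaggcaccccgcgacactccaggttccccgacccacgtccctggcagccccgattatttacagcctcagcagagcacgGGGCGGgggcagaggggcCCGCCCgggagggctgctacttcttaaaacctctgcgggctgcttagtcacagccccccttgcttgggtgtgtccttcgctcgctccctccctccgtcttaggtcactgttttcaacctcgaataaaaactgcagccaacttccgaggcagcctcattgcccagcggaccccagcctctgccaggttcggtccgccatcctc
VCL: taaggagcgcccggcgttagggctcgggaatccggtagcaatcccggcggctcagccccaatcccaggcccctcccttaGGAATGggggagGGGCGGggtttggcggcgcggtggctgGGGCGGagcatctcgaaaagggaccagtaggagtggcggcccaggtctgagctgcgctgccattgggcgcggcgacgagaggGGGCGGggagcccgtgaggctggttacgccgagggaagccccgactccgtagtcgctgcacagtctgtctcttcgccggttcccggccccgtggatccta
GGGCGG was matched 4 times in the L1CAM window, 3 times in CAV1, 2 times in CD44 and 3 times in VCL, and GGAATG 1 time in VCL alone. GGGCGG occurred in 16 of 30 member windows (53.3%) and in 43.8% of all 27305 windows, and GGAATG in 4 of 30 (13.3%), beside 14.2% of all. The AP-1 motif TGACTCA was in 1 member window, that of ITGA5 (3.33%, beside 5.05% of all), and the FOXO motif TGTTTAC in 0 of 30 (3.45% of all). The CArG box, which serum response factor binds, was matched in the windows of ITGB1BP1 and ITGB6 (6.67%, beside 1.31% of all). The windows follow RefSeq starts, and the GENCODE genes L1CAM and VCL begin further upstream, as does CD44 by a short stretch. RefSeq windows of ITGA3, ITGA7, ITGA9, ITGB3, ITGB4, PARVA, PTK2, SRC and CD151 were not used here.

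With the Viperin plasmid and vehicle, the integrin chains ITGB1 and ITGAV and the adhesion molecule L1CAM rose, by 13.6%, 12.7% and 14.0%, and CAV1 fell by 12.6%. These 4 are 10.5% of the 38 members tested, where 2.29% of all 23041 genes passed the same test, an adjusted p under 0.05 from edgeR's quasi-likelihood test. By direction, 3 members were higher (7.89%, beside 1.25% of all genes) and 1 was lower (2.63%, beside 1.04%). The comparison asks what the plasmid does to adhesion genes in the absence of insulin. Of the 23041 genes, 11466 had a mean of at least 100 counts per library, as did all members but ITGA10, ITGB6, ITGB7 and ITGA9. Shares of all genes, here and below, were not matched for level. The part of level in the gap between members and all genes was not tested.

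ITGB1 (ENSG00000150093.19, chromosome 10 of GRCh38, 32887273 to 33005792, minus strand) had 781, 783 and 779.8 CPM in Viperin libraries, against 703, 684 and 676 CPM in Control libraries. All Viperin libraries lay above all Control libraries. The log2 fold change was 0.18 (SE 0.03, edgeR adjusted p = 0.000342), a mean of 781 ± 1.44 against 688 ± 13.5 CPM (SD, n = 3 libraries each). ITGAV (ENSG00000138448.12, chromosome 2, 186590010 to 186680901, plus strand) had 148, 148 and 146 CPM in Viperin libraries and 147, 120.1 and 125 CPM in Control libraries. Control library 1 reached the level of the Viperin libraries and the other 2 lay below them. Its log2 fold change was 0.17 (SE 0.05, edgeR adjusted p = 0.0394).

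L1CAM (ENSG00000198910.14, X chromosome, 153861514 to 153886173, minus strand), an immunoglobulin-like adhesion molecule that can bind integrins, had 183, 176 and 188 CPM in Viperin libraries, against 171, 149.6 and 159.7 CPM in Control libraries. The groups did not overlap, and the log2 fold change was 0.19 (SE 0.04, edgeR adjusted p = 0.00182). Part of its exon sequence is shared on the same strand with an unnamed annotated gene, so reads from that stretch may be missing from its counts. CAV1 (ENSG00000105974.12, chromosome 7, 116524994 to 116561179, plus strand) had 628, 638 and 603 CPM in Viperin libraries and 663, 730.0 and 744 CPM in Control libraries. Every Viperin library was below every Control library, with a log2 fold change of -0.19 (SE 0.04, edgeR adjusted p = 0.000675).

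The other 34 members did not pass. Of the beta chains, ITGB3, ITGB4 and ITGB5 had log2 fold changes of 0.12, 0.18 and 0.21 with edgeR adjusted p of 0.352, 0.118 and 0.201, and ITGB8 had -0.06. Leaving aside ITGB6 and ITGB7, the members that did not pass lay between -0.21 (ITGA10, 12 to 43 counts per library) and 0.24 (ITGA11, a collagen receptor chain, edgeR adjusted p = 0.151). FERMT2, which encodes kindlin-2, and VCL, which encodes vinculin, the talin-to-actin link, came nearest to passing, at 0.13 and 0.11 with edgeR adjusted p of 0.0655 and 0.066. For TLN1 (talin), PARVA (parvin) and SRC the 95% intervals of the log2 difference were -0.09 to 0.05, -0.07 to 0.08 and -0.11 to 0.09. In 10 of 38 members (26.3%) the Viperin libraries did not overlap the Control libraries, beside 15.8% of all genes. DESeq2 called 7 members, the same 4 with FERMT2, ITGB5 and VCL added.

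Without Control library 1 the count was 12 members, without Control library 2 it was 2 (CAV1 and ITGB1), and without both Control library 1 and Viperin library 3 it was 9, a setting added after seeing the data. Counts from such alternative fits, here and below, are given without the share of all genes under the same setting. They show only how steady the calls were. ITGAV did not pass without Control library 2 (edgeR adjusted p = 0.227), Control library 3 (0.241), Viperin library 1 (0.0955), 2 (0.14) or 3 (0.111), Insulin library 3 (0.0543) or Viperin + Insulin library 2 (0.0563), and L1CAM did not without Control library 2 (0.0613). With the filterByExpr filter ITGAV had an edgeR adjusted p of 0.0514, and with only Viperin and Control libraries in the fit 0.0959. ITGB1 and CAV1 passed with each of the 12 libraries left out in turn.

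In insulin-treated cells the Viperin plasmid raised ITGB1 and L1CAM as well, together with TNS3 and ITGA7. These 4 members were higher (10.5% of 38, beside 2.09% of all genes higher and 3.08% in either direction) and 0 were lower (beside 0.99%) in Viperin + Insulin than in Insulin libraries. DESeq2 called 4 higher and 1 lower, ITGA2. At an unadjusted p under 0.05 there were 11 members (28.9%, beside 14.2% of all genes).

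ITGB1 had 742, 758 and 766 CPM in Viperin + Insulin libraries, against 684, 687 and 695 CPM in Insulin libraries, and the groups did not overlap. Its log2 fold change was 0.13 (SE 0.03, edgeR adjusted p = 0.0106). L1CAM had 174, 174 and 176 CPM in Viperin + Insulin and 148, 150.3 and 148 CPM in Insulin libraries, 2 tight and separate groups with a log2 fold change of 0.23 (SE 0.04, edgeR adjusted p = 4.92e-05). TNS3 (ENSG00000136205.17, chromosome 7, 47275154 to 47582558, minus strand), a tensin that couples beta tails to actin, had 129, 136 and 137 CPM in Viperin + Insulin and 117, 117 and 114 CPM in Insulin libraries. All Insulin libraries were the lower ones, and the log2 fold change was 0.21 (SE 0.04, edgeR adjusted p = 0.000194).

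ITGA7 (ENSG00000135424.17, chromosome 12, 55684568 to 55716404, minus strand), a laminin-binding chain best known from muscle, had 20.8, 19.5 and 20.1 CPM in Viperin + Insulin and 16.2, 15.9 and 17.0 CPM in Insulin libraries. The groups did not overlap, with a log2 fold change of 0.30 (SE 0.07, edgeR adjusted p = 0.0114). ITGAV and CAV1, called between Viperin and Control, had log2 fold changes of 0.15 and -0.09 here, with edgeR adjusted p of 0.0608 and 0.20. Their libraries did not overlap either, but they did not pass. The remaining members, ITGB6 and ITGB7 aside, lay between -0.41 (ITGA2, edgeR adjusted p = 0.207) and 0.29 (ITGA10, edgeR adjusted p = 0.761). In all, 9 members (23.7%) did not overlap, beside 21.7% of all genes.

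Without Insulin library 2 the count was 2 (L1CAM and TNS3), without Insulin library 1 it was 7, and without both Control library 1 and Viperin library 3 it was 7. ITGB1 did not pass without Insulin library 2 (edgeR adjusted p = 0.0748) or 3 (0.0567) or without Viperin + Insulin library 2 (0.0589) or 3 (0.0958), and ITGA7 did not without Insulin library 2 (0.0919) or Viperin + Insulin library 1 (0.0913).

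The Viperin comparisons with and without insulin share no library. Of the 38 members, 27 (71.1%) had the same sign in both, beside 60.5% of all genes, and 2, ITGB1 and L1CAM, passed in both. Averaged over vehicle and insulin, with 6 libraries on each side, 11 members passed (28.9%, beside 7.96% of all genes). The 8 higher ones (21.1%, beside 4.47%) were L1CAM, ITGB1, ITGAV, TNS3, ITGA7, FERMT2, ITGB4 and ITGA11, and the 3 lower ones (7.89%, beside 3.49%) were CAV1, ZYX and PXN. TNS3 passed in the insulin-treated cells, with means of 134 CPM in Viperin + Insulin and 116 CPM in Insulin libraries. With vehicle its means were 134 CPM in Viperin and 131 CPM in Control libraries, and it did not pass there. The test of the difference, given below, did not pass for TNS3. Its Viperin effects with and without insulin were therefore not shown to differ. L1CAM had the smallest p, with a log2 difference of 0.21 (SE 0.03, edgeR adjusted p = 5.24e-08), followed by ITGB1 with 0.16 (SE 0.02, edgeR adjusted p = 1.4e-06). ZYX and PXN, which encode the focal adhesion proteins zyxin and paxillin, differed by -0.11 (SE 0.03, edgeR adjusted p = 0.0171) and -0.09 (SE 0.03, edgeR adjusted p = 0.0253). In L1CAM, ITGB1, FERMT2, CAV1 and PTK2 all 6 libraries with the Viperin plasmid lay on one side of all 6 with the empty vector, 5 of 38 members (13.2%) beside 2.06% of all genes. PTK2, which encodes FAK, had a log2 difference of 0.06 and did not pass (edgeR adjusted p = 0.132). The count of 11 was 18 without Control library 1 and 9 without Insulin library 3 or Viperin + Insulin library 2. ITGB4 did not pass without Viperin + Insulin library 2 (edgeR adjusted p = 0.0589), and with 1 library left out in turn ZYX passed in 8 of 12 fits, PXN in 6 and ITGA11 in 5. With unstranded counts PXN did not pass either (edgeR adjusted p = 0.212).

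**Figure D2:**
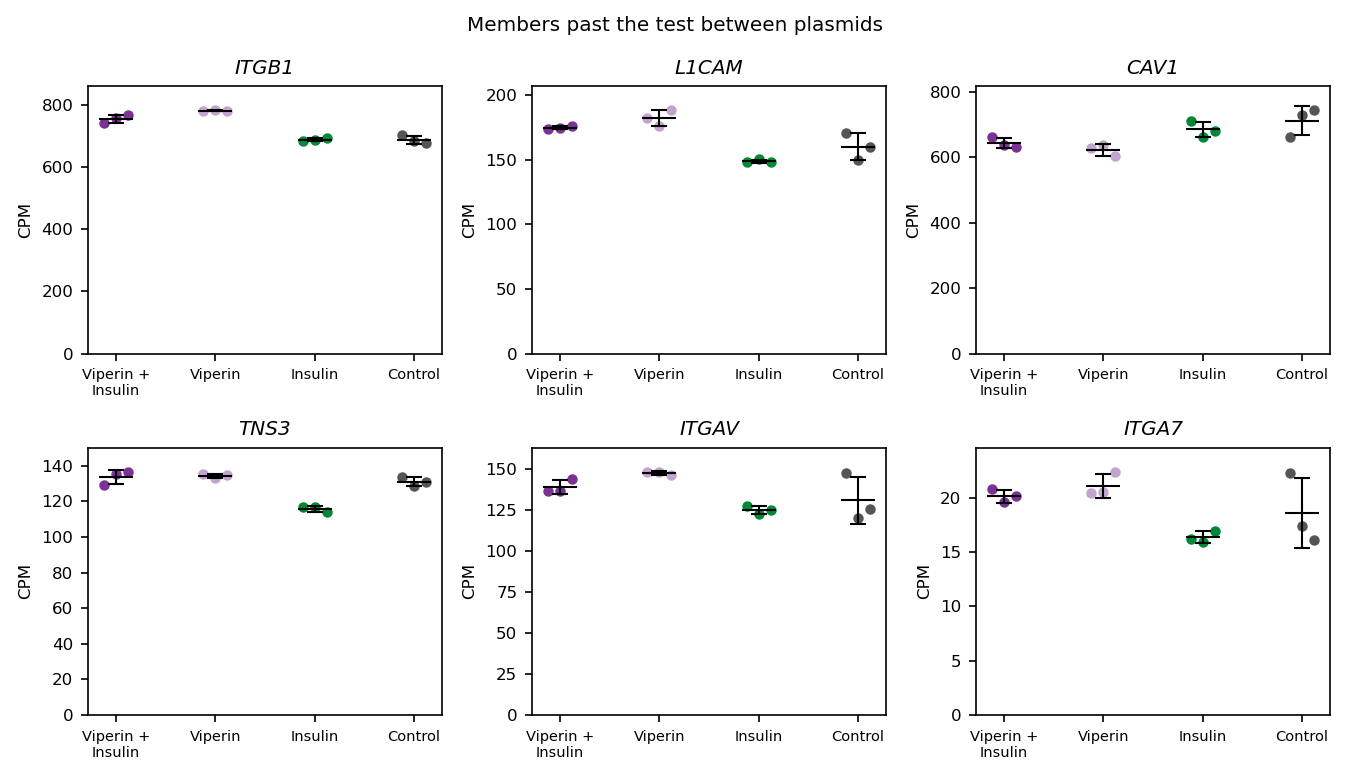
CPM of the 6 members past the test between plasmids, 1 point per library, in Viperin + Insulin, Viperin, Insulin and Control cells, with bars for the mean ± SD of 3 libraries. ITGB1 and L1CAM stand higher and CAV1 lower in the libraries with the Viperin plasmid, and TNS3 is lowest in Insulin libraries.

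With insulin in empty-vector cells, 9 members fell and 1 rose. The 9 that fell were CD44, the integrin chains ITGA1, ITGB4 and ITGB8, the adaptors VCL, ILK, TNS1 and TNS3, and the scaffold NEDD9, and the 1 that rose was ITGAE. The 10 make 26.3% of the 38 members, beside 5.49% of all genes, with 23.7% lower (beside 2.96%) and 2.63% higher (beside 2.53%). Of the 7 actin-linking adaptors 4 fell, of the 5 kinases and scaffolds 1 fell, and of the 4 tail binders 0 passed.

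CD44 (ENSG00000026508.19, chromosome 11, 35138882 to 35232402, plus strand) had 1193, 1383 and 1304 CPM in Insulin libraries, against 1516, 1564 and 1581 CPM in Control libraries. The groups were well apart, although Insulin libraries spread more widely, and the log2 fold change was -0.26 (SE 0.04, edgeR adjusted p = 1.1e-06). ITGB4 (ENSG00000132470.14, chromosome 17, 75721328 to 75757818, plus strand), which pairs with the alpha 6 chain in hemidesmosomes, had 27.0, 25.4 and 24.2 CPM in Insulin and 34.5, 29.2 and 32.7 CPM in Control libraries. Every Insulin library was lower, with a log2 fold change of -0.33 (SE 0.06, edgeR adjusted p = 0.000414). ITGA6, its partner, had a log2 fold change of 0.03 with a 95% interval of -0.07 to 0.12.

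VCL (ENSG00000035403.17, chromosome 10, 73995193 to 74121363, plus strand) had 348, 366 and 361 CPM in Insulin libraries, against 400.1, 389 and 393 CPM in Control libraries. The groups did not overlap and the log2 fold change was -0.14 (SE 0.03, edgeR adjusted p = 0.00753). TNS3 had 117, 117 and 114 CPM in Insulin and 134, 129 and 131 CPM in Control libraries, again apart, with a log2 fold change of -0.18 (SE 0.04, edgeR adjusted p = 0.00118). TNS1 (ENSG00000079308.19, chromosome 2, 217799588 to 218033982, minus strand), another tensin, had 18.5, 20.6 and 20.2 CPM in Insulin and 23.8, 22.4 and 24.7 CPM in Control libraries. Its groups were also separate, with a log2 fold change of -0.26 (SE 0.07, edgeR adjusted p = 0.0075).

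ITGAE (ENSG00000083457.12, chromosome 17, 3714628 to 3801188, minus strand) had 31.5, 30.8 and 31.0 CPM in Insulin libraries and 27.9, 25.1 and 20.4 CPM in Control libraries. The Insulin libraries were nearly equal and all above the Control libraries, which were spread out. The log2 fold change was 0.35 (SE 0.07, edgeR adjusted p = 0.00122). ITGAE encodes CD103, known from T cells of epithelia, where it pairs with the beta 7 chain and binds E-cadherin, and here the beta 7 gene ITGB7 held 0 to 4 counts, the E-cadherin gene CDH1 24 to 66 counts and the T cell marker CD3E 0 to 1 count per library.

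ITGB8 (ENSG00000105855.10, chromosome 7, 20330702 to 20415754, plus strand), which with ITGAV activates latent TGF-beta, had 63.1, 59.4 and 61.1 CPM in Insulin and 69.1, 64.6 and 75.2 CPM in Control libraries. The groups did not overlap, with a log2 fold change of -0.19 (SE 0.05, edgeR adjusted p = 0.00939). ITGA1, a collagen receptor chain, had 9.01, 8.78 and 9.22 CPM in Insulin and 11.6, 12.1 and 9.93 CPM in Control libraries and a log2 fold change of -0.31 (SE 0.09, edgeR adjusted p = 0.0238). ITGA1 shares exon sequence on the same strand with PELO, so that its counts are uncertain. NEDD9, a scaffold of the p130Cas family, was low, at 88 to 104 counts in Insulin and 92 to 127 in Control libraries. It had 2.85, 2.40 and 2.55 CPM in Insulin and 3.56, 4.19 and 3.50 CPM in Control libraries, with a log2 fold change of -0.53 (SE 0.15, edgeR adjusted p = 0.02).

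ILK had 236, 242 and 241 CPM in Insulin and 255, 256 and 268 CPM in Control libraries, groups that were apart by a small margin, with a log2 fold change of -0.12 (SE 0.04, edgeR adjusted p = 0.0414). Its partners in the same complex were not called, LIMS1 at -0.02 and PARVA at -0.08 with edgeR adjusted p of 0.882 and 0.247. With counts that ignore strand ILK had a log2 fold change of 0.39 (edgeR adjusted p = 0.634), and its exons overlap those of TAF10 on the opposite strand. The unstranded value did not pass, so an opposite direction was not shown. The fall of ILK therefore rests on reverse-strand counts. Members that did not pass, ITGB6 and ITGB7 aside, lay between -0.86 (ITGA10, edgeR adjusted p = 0.0623) and 0.15 (ITGA2, edgeR adjusted p = 0.695). ITGB1 had a log2 fold change of 0.00 with a 95% interval of -0.07 to 0.07.

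Without Insulin library 2 the count was 6, and over all 12 libraries left out in turn it was 6 to 10. TNS1 did not pass without Control library 3 (edgeR adjusted p = 0.06) or Insulin library 1 (0.0728), VCL without Insulin library 1 (0.0683), ITGB8 without Control library 3 (0.139) or Insulin library 2 (0.0897), NEDD9 without Control library 2 (0.122) and likewise without Insulin library 2 (0.127) or 3 (0.08), ITGA1 without any Insulin library (0.0553, 0.115 and 0.0603) or without Control library 1 (0.066) or 2 (0.152), and ILK passed in 4 of the 12 fits. ILK also did not pass with the replicate number as a block (edgeR adjusted p = 0.0564), with no filter on low counts (0.0701), with only Insulin and Control libraries in the fit (0.115) or without edgeR's robust option (0.0559). CD44, ITGB4, TNS3 and ITGAE passed with each library left out in turn.

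In cells with the Viperin plasmid, insulin lowered CD44, VCL, ITGB4 and TNS1. These 4 of 38 members (10.5%) were all lower, where 2.39% of all genes were lower and 4.56% passed in either direction, and 0 members were higher, beside 2.17% of all genes. DESeq2 called the same 4 lower and 1 higher, PXN, and 12 members had an unadjusted p under 0.05 (31.6%, beside 15.5% of all genes).

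CD44 had 1206, 1177 and 1258 CPM in Viperin + Insulin libraries, against 1524, 1458 and 1498 CPM in Viperin libraries, with no overlap and a log2 fold change of -0.30 (SE 0.04, edgeR adjusted p = 6.28e-08). VCL had 360.3, 370.0 and 368 CPM in Viperin + Insulin and 432, 428 and 417 CPM in Viperin libraries, a wide gap beside the spread within each group. Its log2 fold change was -0.22 (SE 0.03, edgeR adjusted p = 5.83e-06). ITGB4 had 26.2, 31.8 and 28.0 CPM in Viperin + Insulin and 36.8, 38.0 and 34.3 CPM in Viperin libraries, apart but with Viperin + Insulin library 2 nearest to the others, and a log2 fold change of -0.35 (SE 0.06, edgeR adjusted p = 8.3e-05). TNS1 had 18.6, 20.5 and 18.8 CPM in Viperin + Insulin and 22.0, 23.6 and 22.9 CPM in Viperin libraries. These groups did not overlap either, with a log2 fold change of -0.25 (SE 0.06, edgeR adjusted p = 0.0108).

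ITGAE had 29.3, 31.3 and 29.9 CPM in Viperin + Insulin and 25.5, 25.8 and 28.9 CPM in Viperin libraries. All Viperin + Insulin libraries were the higher ones, but the log2 fold change of 0.18 (SE 0.07, edgeR adjusted p = 0.16) did not pass. TNS3, which fell with insulin in empty-vector cells, had 129, 136 and 137 CPM in Viperin + Insulin and 135, 133 and 135 CPM in Viperin libraries, which overlapped, with a log2 fold change of -0.01 (SE 0.04, edgeR adjusted p = 0.973). The other members, ITGB6 and ITGB7 aside, lay between -0.37 (ITGA10) and 0.18 (ITGAE). Here 14 members (36.8%) did not overlap, beside 21.1% of all genes. Over the 12 libraries left out in turn the count was 3 to 6. TNS1 did not pass without Viperin library 2 (edgeR adjusted p = 0.0844) or Viperin + Insulin library 1 (0.0762) or 3 (0.0823), and with only these 2 groups in the fit 8 members passed.

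**Figure D3:**
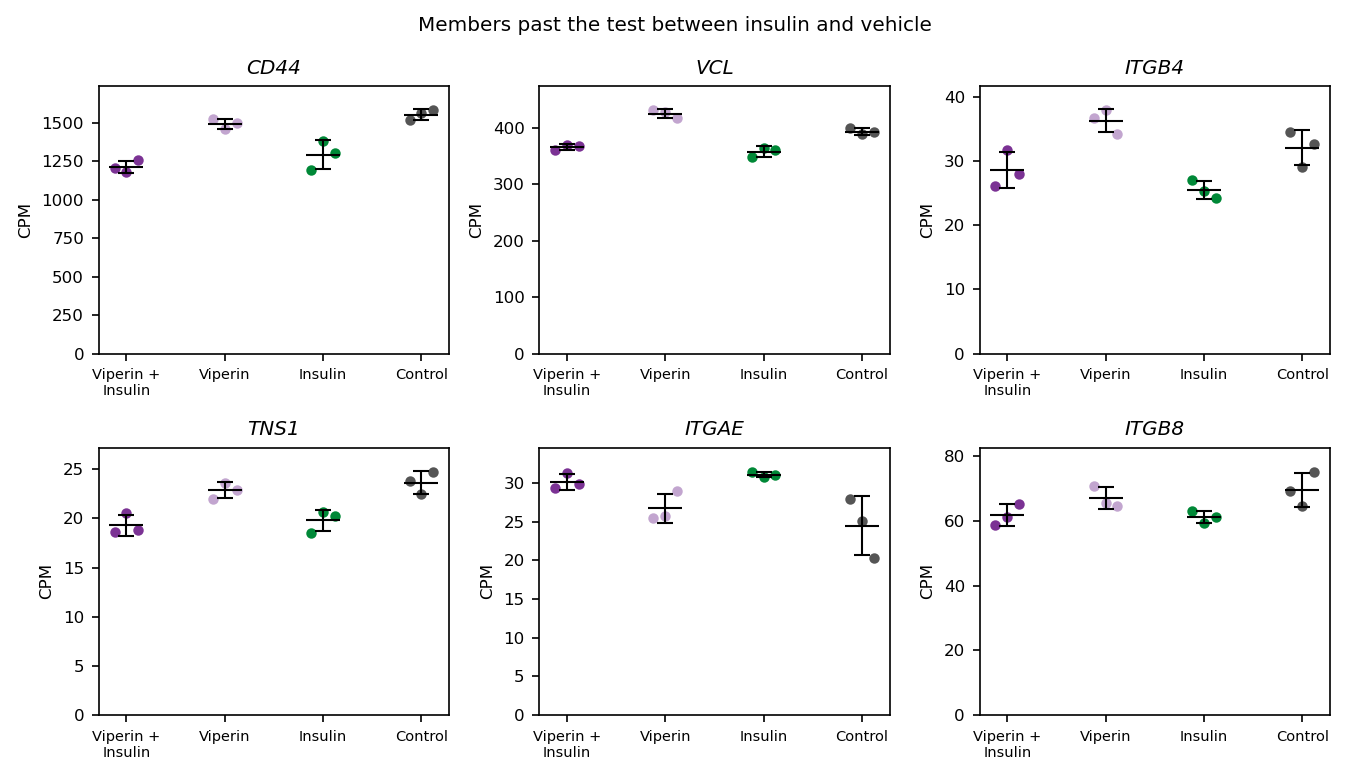
CPM of 6 members past the test between insulin and vehicle, 1 point per library, in Viperin + Insulin, Viperin, Insulin and Control cells, with bars for the mean ± SD of 3 libraries. CD44, VCL, ITGB4 and TNS1 are lower in both insulin groups, while ITGAE is highest in the Insulin and Viperin + Insulin libraries.

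The insulin comparisons in the 2 plasmid states share no library. The sign was the same in both for 31 of 38 members (81.6%), beside 62.1% of all genes, and 4 members, CD44, VCL, ITGB4 and TNS1, passed in both. For CD44 the log2 fold changes were -0.30 with the Viperin plasmid and -0.26 without it, and for ITGB4 -0.35 and -0.33. The test of the difference itself called 0 of 38 members and 0 of 23041 genes with edgeR, and 0 members with DESeq2. The unadjusted edgeR p was under 0.05 for 2 members (5.26%, beside 5.63% of all genes). These were TNS3 with a log2 difference of 0.17 (SE 0.05, edgeR adjusted p = 0.547) and CD151 with -0.13 (SE 0.06, edgeR adjusted p = 0.802). TNS3 therefore passed for insulin without the Viperin plasmid and not with it, but the 2 responses were not shown to differ. For CD44 the 95% interval of the difference was -0.14 to 0.07, for VCL -0.18 to 0.02 and for ITGB4 -0.20 to 0.16 on the log2 scale, and for ITGAE it was -0.38 to 0.03.

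**Figure D4:**
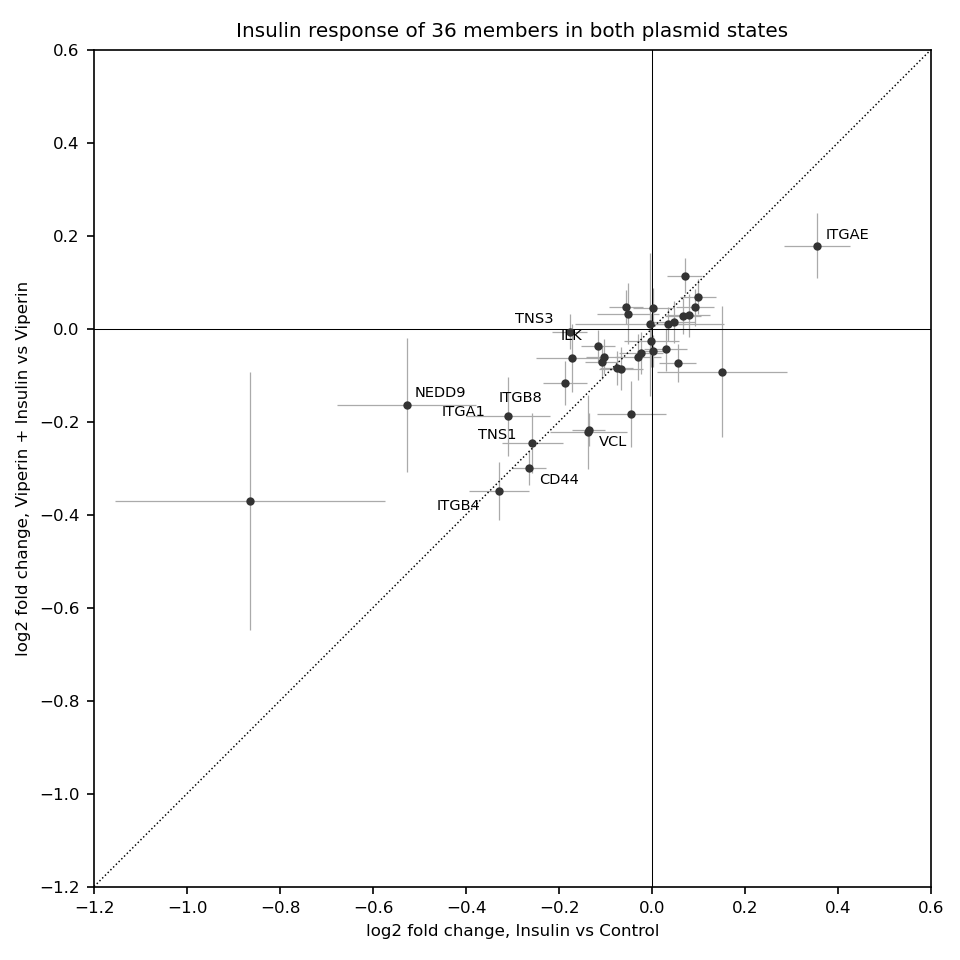
Log2 fold change with insulin in Viperin plasmid cells (vertical axis) against that in empty-vector cells (horizontal axis) for 36 members, with bars of 1 SE and a dotted line of equality. Named are the 10 members past the test in either comparison, and the 4 past it in both, CD44, VCL, ITGB4 and TNS1, differ between the axes by 0.08 or less in size.

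Averaged over both plasmids, with 6 libraries on each side, insulin changed 17 of 38 members (44.7%, beside 11.7% of all genes). The 14 lower ones (36.8%, beside 5.97%) were CD44, VCL, ITGB4, TNS1, ITGB8, ITGA1, TLN1, TNS3, NEDD9, PARVA, ITGA10, ILK, L1CAM and ITGA11, and the 3 higher ones (7.89%, beside 5.76%) were ITGAE, PXN and ITGA3. CD44 differed by -0.28 (SE 0.03, edgeR adjusted p = 2.29e-12) and VCL by -0.18 (SE 0.02, edgeR adjusted p = 6.88e-08). ITGAE differed by 0.27 (SE 0.05, edgeR adjusted p = 0.00018). TLN1, the main talin, and PXN differed by -0.09 (SE 0.03, edgeR adjusted p = 0.0101) and 0.09 (SE 0.03, edgeR adjusted p = 0.0111). In CD44, VCL, TNS1 and ITGAE all 6 insulin libraries lay on one side of all 6 vehicle libraries, 4 of 38 members (10.5%) beside 4.11% of all genes. By role, 5 of 7 adaptors fell and 0 rose, and 3 of 4 collagen-binding chains fell, namely ITGA1, ITGA10 and ITGA11. The count of 17 was 10 without Insulin library 3 and 11 without Viperin library 1. TLN1 did not pass without Viperin + Insulin library 1 (edgeR adjusted p = 0.0683) and PXN did not without Insulin library 2 (0.0607) or Viperin library 2 (0.0645), and of the 12 fits with 1 library left out TNS3 passed in 10, NEDD9 in 8, PARVA in 7, ITGA3 and ITGA10 in 5, ILK and ITGA11 in 4 and L1CAM in 3.

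**Figure D5:**
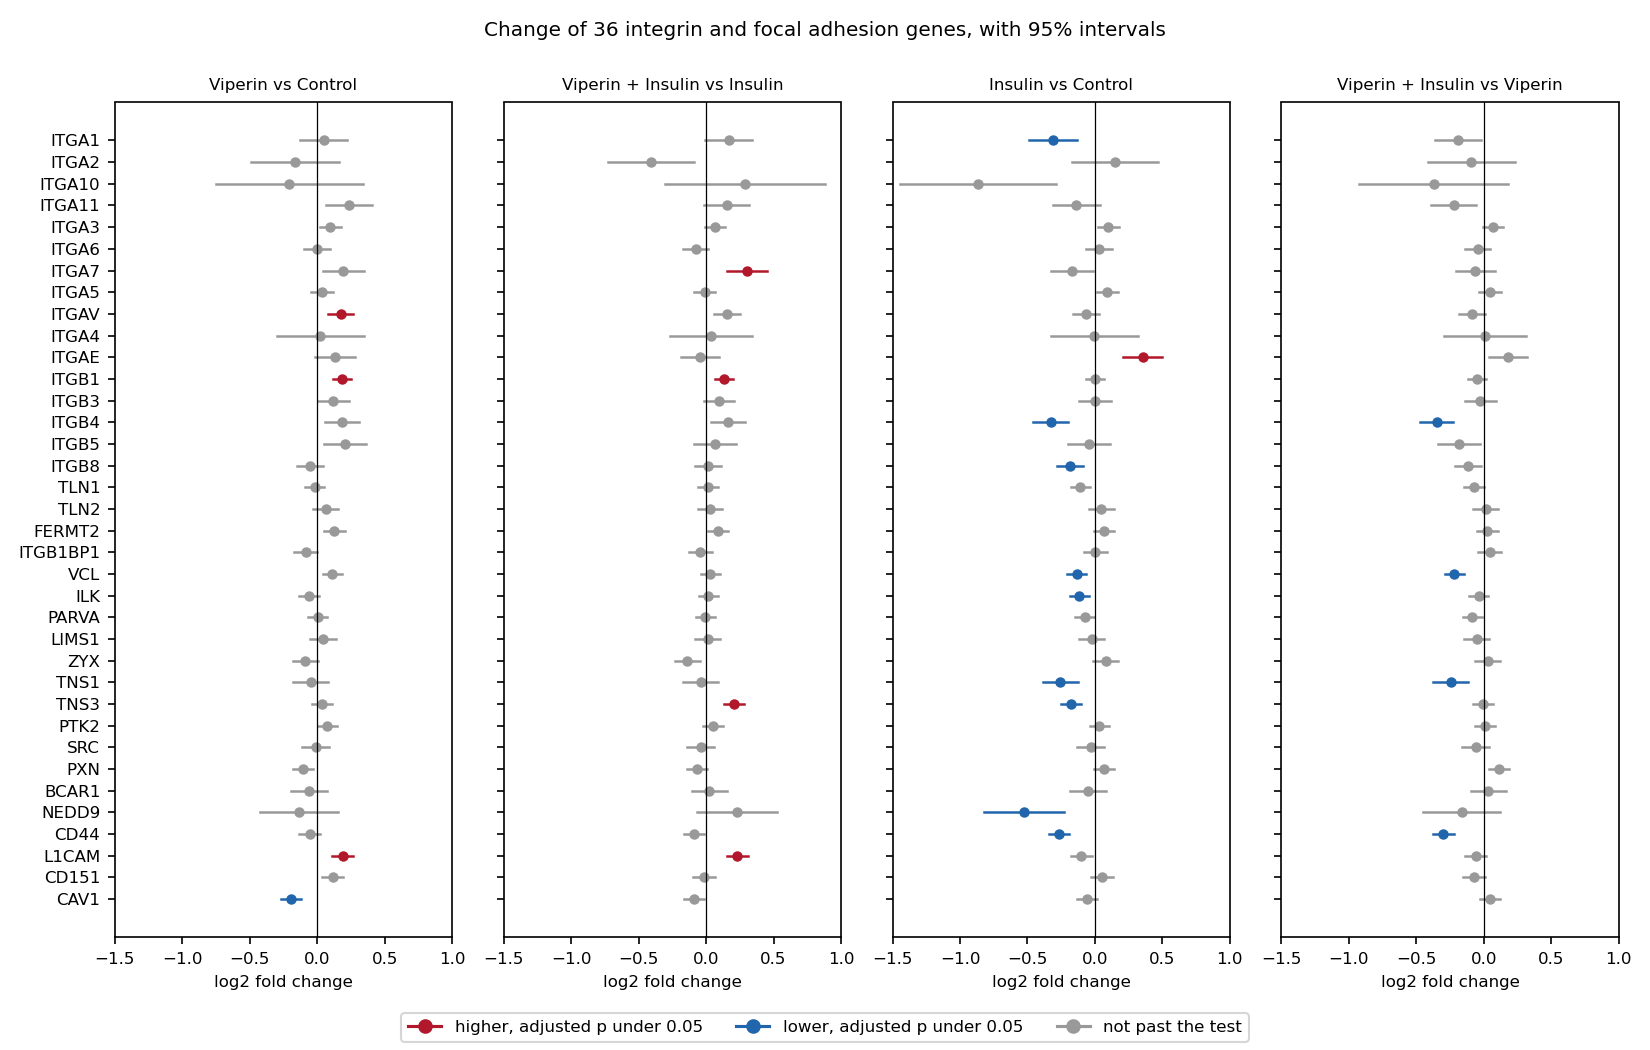
Log2 fold change (points) and 95% interval (lines) of 36 members in the 4 comparisons of 2 groups, ordered by role, with members at an edgeR adjusted p under 0.05 in red when higher and blue when lower. The largest change that passed was that of NEDD9 at -0.53 with insulin in empty-vector cells.

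ITGB1BP1 (which binds the beta 1 tail), TLN2, LIMS1, PTK2, SRC and BCAR1, together with the integrin chains ITGA2, ITGA4, ITGA5, ITGA6, ITGB3 and ITGB5 and the tetraspanin CD151, passed in none of the 7 comparisons, the same holding for ITGB6 and ITGB7 at their few counts. ITGA5 had log2 fold changes of 0.04 and -0.01 with the Viperin plasmid and 0.09 and 0.05 with insulin. For PTK2 the largest of the 4 was 0.07, and for SRC the 4 lay between -0.06 and -0.01.

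At the stricter threshold that the study used, an adjusted p under 0.001, fewer members passed in edgeR's test. ITGB1 and CAV1 passed between Viperin and Control, 2 of 38 (5.26%, beside 0.304% of all genes), and L1CAM and TNS3 between Viperin + Insulin and Insulin, 2 of 38 (beside 0.473%). CD44 and ITGB4 passed between Insulin and Control, 2 of 38 (beside 1.18%), and CD44, ITGB4 and VCL between Viperin + Insulin and Viperin, 3 of 38 (7.89%, beside 1.11%). For the averages, 5 members passed for the Viperin plasmid (13.2%, beside 2.05%) and 6 for insulin (15.8%, beside 3.92%).

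Genes around the members were read from lists of integrin ligands, partners, adaptors and signalling genes. These lists were chosen with earlier results of these data known. Their counts beside all genes therefore describe the lists and are no independent test. Of 30 integrin ligands, 10 were higher (beside 1.25% of all genes) and 0 lower (beside 1.04%) in Viperin than in Control libraries, with a median log2 fold change of 0.22 beside 0.00 over all genes. Those with the smallest p were FBN1 (fibrillin-1) at 0.24, COL3A1 at 0.27 and LAMB1 (laminin beta 1) at 0.19, with edgeR adjusted p of 1.23e-05, 0.000241 and 0.000524. In Viperin + Insulin against Insulin libraries 9 of the 30 were higher (beside 2.09%) and 0 lower (beside 0.99%), led by FBN1 at 0.24, LAMB1 at 0.21 and LAMA3 at 0.39, with a median of 0.16. With insulin, 0 of 30 ligands were higher (beside 2.53%) and 2, LAMA3 and LAMA4, were lower (beside 2.96%) in Insulin than in Control libraries. Averaged over both plasmids 3 were higher (beside 5.76%) and 4 lower (beside 5.97%). In Viperin + Insulin against Viperin libraries TNC (tenascin C) was the 1 ligand higher, at 0.23 (beside 2.17%), and 3 ligands were lower (beside 2.39%), among them LAMA4 at -0.28 and VTN (vitronectin) at -0.52.

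Of 16 partners, SLC3A2, the CD98 heavy chain that binds beta tails and carries amino acid transporters, was the 1 that rose with insulin in each plasmid state. Its log2 fold change was 0.44 in empty-vector cells and 0.33 in Viperin plasmid cells (edgeR adjusted p = 5.5e-11 and 1.62e-07), beside 2.53% and 2.17% of all genes higher. SLC3A2 was also the 1 partner lower in Viperin + Insulin than in Insulin libraries, at -0.16 (beside 0.99%). Of 22 other adaptors, the talin binder KANK2, the tensin TNS2 and the zyxin relative LPP fell with insulin in empty-vector cells at -0.21, -0.30 and -0.14 (3 of 22, beside 2.96% of all genes), and 2, LPP and VASP, were lower in Viperin than in Control libraries at -0.22 and -0.15 (beside 1.04%). Of 27 signalling genes, PTK2B, the kinase closest to FAK, and DOCK1, a Rac activator, were higher in Viperin than in Control libraries at 0.20 and 0.14 (2 of 27, beside 1.25%). The same 2 were lower in Insulin than in Control libraries at -0.17 and -0.14 (2 of 27, beside 2.96%). Both comparisons use the same Control libraries. Without Control libraries, DOCK1 and PTK2B were higher in Viperin + Insulin than in Insulin libraries, at 0.17 and 0.19 (2 of 27, beside 2.09%). In Viperin + Insulin against Viperin libraries PTK2B was lower at -0.18 (1 of 27, beside 2.39%), and DOCK1 did not pass. ROCK1, a kinase that drives actomyosin contraction, was lower at -0.13 in Viperin libraries, set against Control libraries (1 of 27, beside 1.04%). Of 4 testable other integrin chains, 0 passed in any of the 7 comparisons.

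Other measures moved with the same groups. Marker sums are in CPM scaled to all assigned counts, with no TMM. The summed CPM of 10 stromal or mesenchymal markers was 6545 to 6652 in Viperin libraries, against 5543 to 6122 in Control libraries, and 6405 to 6741 in Viperin + Insulin libraries, against 5805 to 5904 in Insulin libraries. COL1A1, COL1A2 and COL3A1 are in this sum and in the list of ligands. The summed CPM of 8 epithelial markers was 2682 to 2815 in Insulin libraries, against 2552 to 2630.4 in Control libraries, and 2583 to 2716 in Viperin + Insulin libraries, against 2462 to 2556 in Viperin libraries. Nearly all of this sum was KRT8, KRT18 and KRT19, with averages of 1289.7, 824 and 464 CPM. It therefore says little of the other epithelial markers. The share of counts from mitochondrial genes was 4.28% to 4.52% in Viperin + Insulin, 4.81% to 5.34% in Viperin, 5.14% to 5.18% in Insulin and 5.59% to 6.64% in Control libraries. Sums of other cell types' markers were far lower in CPM. The leukocyte sum, most of it CD14, was 6.09 to 7.75 in Viperin libraries, against 5.32 to 5.98 in Control libraries, and 6.65 to 6.91 in Viperin + Insulin libraries, against 5.77 to 6.78 in Insulin libraries. The sum of 4 endothelial markers was 11.1 to 13.9 in Viperin libraries, against 10.1 to 11.5 in Control libraries, and 13.2 to 13.9 in Viperin + Insulin libraries, against 9.997 to 11.1 in Insulin libraries. The sum of 3 red cell markers, nearly all HBB at 1 to 122 counts, was 0.0496 to 0.287 in Viperin libraries, against 0.818 to 2.27 in Control libraries, and 0.106 to 0.213 in Viperin + Insulin libraries, against 1.77 to 3.43 in Insulin libraries. It thus separated the plasmids with no overlap. The cells are 1 line, so this sum is not read as a measure of red cells. The source of the HBB reads was not tested. The sum of 3 platelet markers, with GP9 at 0 in all 12 libraries, was nearly all ITGA2B, itself an integrin chain. It was 1.62 to 1.81 in Viperin libraries, against 1.05 to 1.60 in Control libraries. With insulin it was 1.17 to 1.62 in Viperin + Insulin libraries, against 0.873 to 1.24 in Insulin libraries. The part of these measures in the results was not tested.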

How the data were processed

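mRNA was sequenced from 12 libraries of 12Z cells, 3 in each of 4 groups, which the study describes as independent experiments, so p-values measure the spread between these libraries. The deposited values are whole-number counts of read pairs per gene, made by the authors with no normalization, in columns for unstranded, forward and reverse reads. The submitters' processing notes name cutadapt, Trim Galore, FastQC, STAR, DESeq2 and the genome hg38, with versions not given in the sources used here. Reverse-strand counts were used, since 94.1% to 94.3% of stranded counts fell on that strand. Their 60617 identifiers were matched to GENCODE release 44, of which 60357 gave a symbol and 260 did not, and all 39 members were found. Exons of ITGA7, ITGAE, VCL, ILK and ZYX overlap exons of protein-coding genes on the opposite strand, which strand-specific counts keep apart. These include METTL7B, HASPIN, AP3M1, TAF10 and EPHA1, in that order. Exons of ITGA4, ITGB7, ITGB1BP1 and CD151 also have such overlaps.

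The 23041 genes whose mean over the libraries reached 1 count were normalized by TMM. They were fitted with 4 group means by the robust quasi-likelihood test of edgeR 4.0.16 in R 4.3.3, with its default prior count. Adjustment was by Benjamini-Hochberg over all genes tested. A prior count of 2 was used only for the log CPM with which same-numbered libraries were correlated. Contrasts were the 4 comparisons of 2 groups, the difference of the insulin responses and the 2 averages. A call was an adjusted p under 0.05. Fold changes were shown on the log2 scale with standard errors and 95% intervals. The script was tested on simulated data. Alternatives were RLE size factors, DESeq2 1.42.0, no filter, filterByExpr, unstranded counts, the replicate number as a block, only the groups compared, a threshold of 0.001 and each library left out. Named in full were members that passed in a comparison of 2 groups, and in the surrounding lists up to 3 genes per comparison with the smallest p among those that passed. The members and lists were chosen with earlier results of these data known. Depth was 25979022 to 46889002 assigned read pairs per library, and unassigned pairs were left out of library sizes. CPM per kilobase used the union of annotated exons. Promoter windows are from RefSeq, GRCh38.p14.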

Additional observations from a re-analysis of the deposited data

How the results depend on the processing

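The counts of members past the test moved with several settings. In this section they are given without the share of all genes under each setting, so they show only how steady the calls were. DESeq2 gave 7 for Viperin against Control. With only the groups compared in the fit, 8 passed for Viperin + Insulin against Viperin and 7 for Viperin + Insulin against Insulin. At an adjusted p under 0.001 there were 2 for Viperin against Control, 2 for Insulin against Control, 2 for Viperin + Insulin against Insulin, 5 for Viperin averaged and 6 for insulin averaged. Without both Control library 1 and Viperin library 3, a setting chosen after seeing the data, there were 9 for Viperin against Control and 7 for Viperin + Insulin against Insulin. Leaving out 1 library at a time gave 2 to 12 for Viperin against Control, 6 to 10 for Insulin against Control, 3 to 6 for Viperin + Insulin against Viperin, 2 to 7 for Viperin + Insulin against Insulin, 9 to 18 for Viperin averaged, 10 to 16 for insulin averaged and 0 for the difference of the insulin responses. The single change of sign was ILK between Insulin and Control, at 0.39 with unstranded counts, which did not pass (edgeR adjusted p = 0.634). Of 50 single calls, 25 passed at an adjusted p under 0.05 under every alternative fit, including edgeR without its robust option, which was added after seeing the data. Same-numbered libraries did not pair: 1 of 18 pairs correlated above 0.1 (-0.158 to 0.12) and 9 of 36 library and group combinations correlated best with their own number. With the replicate block the counts were 4, 10, 4, 5, 0, 11 and 17, in the order Viperin against Control, Insulin against Control, Viperin + Insulin against Viperin, Viperin + Insulin against Insulin, difference, Viperin averaged and insulin averaged. The block ended 1 call, that of ILK between Insulin and Control (edgeR adjusted p = 0.0564), and added ITGAV between Viperin + Insulin and Insulin and ITGA10 between Insulin and Control. Depth limits ITGA10 (12 to 43 counts per library), which passed for insulin averaged, and ITGB6, ITGB7 and ITGA9, for which no difference could be shown. The causes of these changes were not tested.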
